A study of Mus musculus with 6 samples.

Results

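The 45 genes described here are those of the unfolded protein response of the endoplasmic reticulum (ER) and of the amino acid response driven by the transcription factor ATF4, as measured by RNA-Seq in WT and *Anp32e-/-* mouse embryonic fibroblasts (MEFs). They were taken from a list of symbols, 19 for the ER branch and 26 for the ATF4 branch, and all 45 were found among the 25039 genes of the deposited table. Each gene was represented by its RefSeq transcript with the highest mean. RNA was sequenced from 3 WT and 3 *Anp32e-/-* libraries to ask how gene expression differs when ANP32E, a histone chaperone that removes the histone variant H2A.Z from chromatin, is missing. The MEFs were primary cells grown from embryos of both genotypes in medium with serum at passage numbers below 8, and neither group received a treatment or an ER stressor. The study describes its cell cultures as biological replicates. How many embryos the cells of each genotype came from is not given in the sources used here, so the p-values measure the spread between these cultures.

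Proteins that fold in the ER are watched by 3 kinds of sensor in its membrane, the kinases PERK (gene *Eif2ak3*) and IRE1 (*Ern1*) and the factor ATF6. When unfolded proteins accumulate, ATF6 and the IRE1 target XBP1 induce chaperones and degradation factors, while PERK phosphorylates the translation factor eIF2. The kinase GCN2 (*Eif2ak4*) does the same when uncharged tRNAs accumulate, and the phosphorylation favors translation of ATF4, which induces genes for amino acid synthesis, transport and tRNA charging. Sensors and factors of both pathways are controlled largely by splicing, cleavage, phosphorylation and translation, none of which is measured by the level of a transcript.

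For each transcript the table lists a mean normalized count (6 libraries), a log2FC with its standard error, in which *Anp32e-/-* is set over WT, and a DESeq2 Wald p-value adjusted over all transcripts tested. It holds no value per library, so the group levels given below were calculated from that mean and the fold change, and no SD between replicates or library total can be given. A gene was called increased or decreased at an adjusted p under 0.05. *Anp32e* itself had a log2FC of −1.54 ± 0.0935 (standard error, n = 3 per group), with calculated levels of 3259 (WT) and 1121 (*Anp32e-/-*) normalized counts. *Xist* was at 5111 normalized counts in WT and under 3 in *Anp32e-/-* MEFs, while *Ddx3y*, *Kdm5d*, *Eif2s3y* and *Uty* were under 3 in WT and between 663 and 1103 in *Anp32e-/-* MEFs. The genotype and these sex-linked transcripts therefore changed together and cannot be told apart as sources of a difference. No gene of either branch lies on a sex chromosome. All 10 fibroblast markers were present, 7 of them increased and 1 decreased, at summed levels of 552346 (WT) and 588909 (*Anp32e-/-*) normalized counts. Of the mesothelial markers, 9 were measured, and 7 of them were increased and 1 was decreased (summed levels 9726 and 12277), with *Wt1*, *Lrrn4* and *Gpm6a* under 3 in WT, and their part in the results below was not tested. Among markers of secretory plasma cells, which have a highly active ER, *Jchain*, *Mzb1* and *Irf4* were under 3 in both groups. The summed levels of the 5 markers, 10156 (WT) and 12424 (*Anp32e-/-*), came almost wholly from *Sdc1* and *Prdm1*. Of the 5 markers, 1 was increased and 0 were decreased. Markers of epithelial (summed levels 339 and 166), endothelial (3151 and 2854) and macrophage cells (612 and 458) included genes under 3 in both groups, namely *Krt5*, *Krt14*, *Emcn*, *Adgre1* and *Lyz2*. Of the 6 markers in each of these lists, 1 epithelial, 1 endothelial and 1 macrophage marker were increased. The decreased ones were 1 epithelial and 1 macrophage marker.

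To show the regulatory sequence on which both pathways act, promoters of the genes were read from RefSeq (GRCm38.p6), from 250 bases before to 50 after the start, for the 38 genes with an entry. *Atf6*, *Hyou1*, *Manf*, *Nars*, *Slc1a5*, *Slc7a5* and *Wars* had none. The ER stress response element (ERSE), through which ATF6 and XBP1 act together with NF-Y, was searched as CCAAT, any 9 bases and CCACG, on both strands. It was found in 39 of 32851 RefSeq promoters (0.119%), and among these genes in 6 of 16 ER genes and 0 of 22 ATF4 genes. Its promoter-proximal occurrences are printed below 5′ to 3′ on the strand of the gene, with the element in capitals. They mark the ER genes with an exact match in this window, and elements elsewhere or with other letters were not searched. In *Creld2* the element reads in the reverse orientation, and *Hsp90b1* held a second element in reverse that is not printed.
*Hspa5*, chr2:34772005-34772063, plus strand, element 65 to 47 bases before the start: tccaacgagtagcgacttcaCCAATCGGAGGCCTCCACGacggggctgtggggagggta
*Hsp90b1*, chr10:86705618-86705676, minus strand, element 212 to 194 bases before: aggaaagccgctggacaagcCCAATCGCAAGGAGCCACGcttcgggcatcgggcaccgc
*Canx*, chr11:50325780-50325838, minus strand, element 145 to 127 bases before: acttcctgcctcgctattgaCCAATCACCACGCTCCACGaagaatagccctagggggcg
*Pdia6*, chr12:17266471-17266529, plus strand, element 98 to 80 bases before: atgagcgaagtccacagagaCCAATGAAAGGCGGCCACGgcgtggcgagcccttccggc
*Dnajc3*, chr14:118937807-118937865, plus strand, element 105 to 87 bases before: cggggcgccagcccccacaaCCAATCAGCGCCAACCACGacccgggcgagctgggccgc
*Creld2*, chr15:88819500-88819558, plus strand, element 126 to 108 bases before: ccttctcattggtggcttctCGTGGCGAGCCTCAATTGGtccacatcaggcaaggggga

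The related element ERSE-II, searched as ATTGG, any 1 base and CCACG, on both strands, was in 12 promoters (0.0365%), among them those of *Herpud1* and *Dnajb11*, in the latter after the start. The element TGACGTGG, which XBP1 and ATF6 also bind, was in 222 promoters (0.676%) and in none of the 38 genes. For the ATF4 branch, the C/EBP-ATF response element (CARE), to which ATF4 binds with a C/EBP partner, was searched as TGATGNAA on both strands. It was in 1304 promoters (3.97%), in 7 of 22 ATF4 genes (*Aars*, *Asns*, *Chac1*, *Gars*, *Pycr1*, *Slc1a4* and *Trib3*) and in 1 of 16 ER genes (*Herpud1*). No matches of different elements overlapped. The matches that lie wholly before the start in the ATF4 branch, and both elements of *Herpud1*, are printed with the element in capitals. The match of *Trib3* and a further match of *Aars* lie after the start, and that of *Slc1a4* spans it, so these are not printed. A match gives only these letters in this window and does not show that a factor was bound in MEFs. For *Aars* the start that was read lies inside the span of the gene, bases 111027778 to 111055569 of chromosome 8, and not at its first base.
*Asns*, chr6:7693210-7693252, minus strand, CARE 23 to 16 bases before the start: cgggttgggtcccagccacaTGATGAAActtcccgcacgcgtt
*Pycr1*, chr11:120643824-120643871, minus strand, CARE 103 to 96 bases before: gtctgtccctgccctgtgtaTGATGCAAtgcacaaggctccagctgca
*Chac1*, chr2:119351029-119351076, plus strand, reverse CARE 193 to 186 bases before: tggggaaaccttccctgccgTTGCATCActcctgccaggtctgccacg
*Aars*, chr8:111033710-111033757, plus strand, reverse CARE 112 to 105 bases before: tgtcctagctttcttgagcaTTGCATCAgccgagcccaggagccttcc
*Gars*, chr6:55037951-55037998, plus strand, reverse CARE 30 to 23 bases before: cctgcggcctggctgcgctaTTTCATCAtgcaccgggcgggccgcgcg
*Herpud1*, chr8:94386297-94386344, plus strand, reverse CARE 112 to 105 bases before: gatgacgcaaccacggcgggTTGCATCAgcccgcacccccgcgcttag
*Herpud1*, chr8:94386357-94386407, plus strand, ERSE-II 52 to 42 bases before: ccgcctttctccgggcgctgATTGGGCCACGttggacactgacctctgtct

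In the ER branch, 3 of 19 genes were increased, 5 were decreased and 11 were not called in *Anp32e-/-* MEFs. *Dnajb11*, *Atf6* and *Creld2* were increased, and *Dnajc3*, *Sdf2l1*, *Manf*, *Xbp1* and *Edem1* were decreased. The median log2FC of the branch was 0.00, with 10 positive and 9 negative values between −0.36 and 0.51. Among the 16693 autosomal genes tested, 16.8% were increased and 14.2% were decreased. The genes of both branches are well expressed, the lowest being *Trib3* at a mean of 478 normalized counts, and of the 8802 autosomal genes at or above this level 22.1% were increased and 16.2% were decreased, with a median log2FC of 0.01. In the ATF4 branch, 7 of 26 genes were increased (*Atf4*, *Ddit3*, *Trib3*, *Psat1*, *Shmt2*, *Slc3a2* and *Nars*), 1 was decreased (*Psph*) and 18 were not called. The median log2FC of the branch was 0.13, with 21 positive and 5 negative values between −0.25 and 0.69. Of the 8802 autosomal genes, 4507 had a positive and 4295 a negative log2FC. Some signs in both branches turned when the medians of the chromosomes were taken out, as described below. The share of genes called was 42.1% in the ER branch and 30.8% in the ATF4 branch, against 38.3% of all autosomal genes at or above the lowest member's mean. These shares, which add up both directions, lie near the background in both branches. By direction, the ER branch held 3 increased and 5 decreased of 19 genes, and the ATF4 branch 7 and 1 of 26. These counts stand beside 22.1% and 16.2% of the background, and the difference was not tested.

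**Figure D1:**
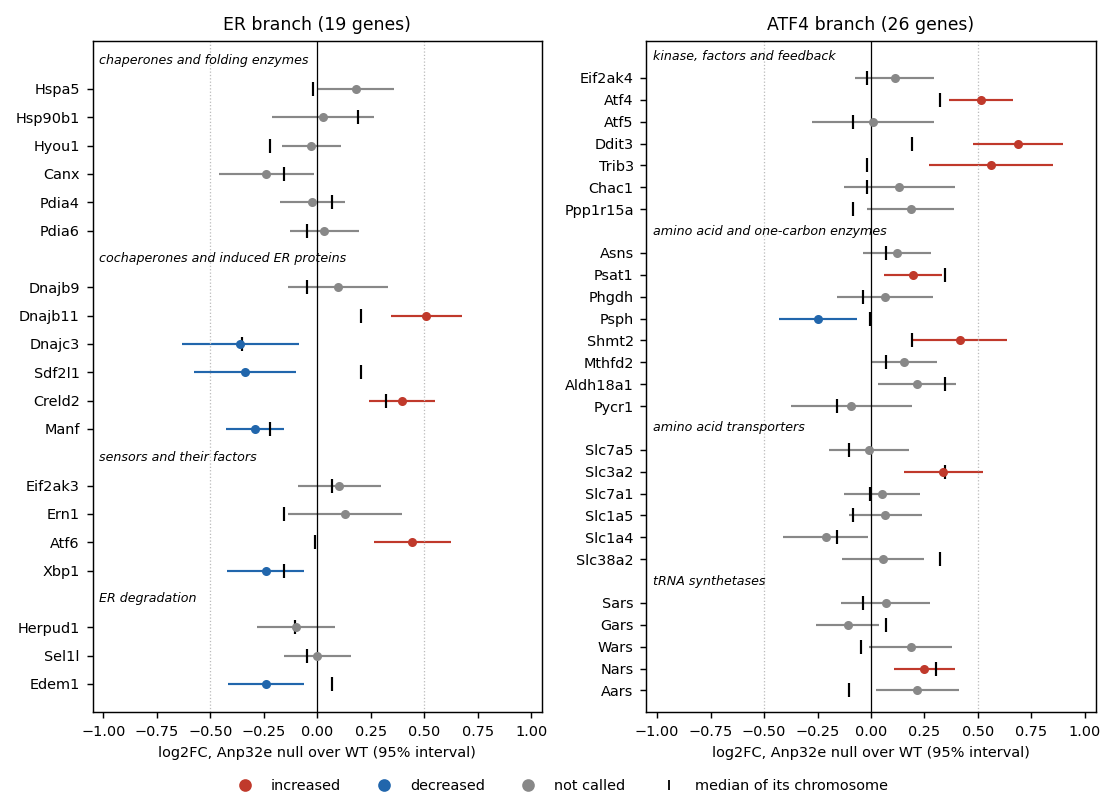
Log2FC of Anp32e-/- over WT (horizontal axis) for the 19 ER genes and the 26 ATF4 genes, ordered by role; points are the log2FC, bars the 95% interval from the standard error (n = 3 per group), black ticks the median log2FC of all genes on the same chromosome and dotted lines an absolute log2FC of 0.5. The increased genes (red) and decreased genes (blue) stand on both sides of 0 in the ER branch. Above 0 lie 21 of 26 ATF4 genes, and 4507 of the 8802 autosomal genes at or above the lowest member's mean.

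The median absolute log2FC was 0.18 over the 45 genes and 0.20 over the autosomal genes at or above the lowest member's mean. Of the 45 genes, 4 were increased past a log2FC of 0.5, namely *Ddit3*, *Trib3*, *Atf4* and *Dnajb11*, and 0 were decreased past −0.5. Of the autosomal genes at or above the lowest member's mean, 7.29% were increased past 0.5 and 5.61% were decreased past −0.5. For all 29 genes not called, the 95% interval of the log2FC lay within −0.5 and 0.5, with the lowest bound at −0.46 (*Canx*) and the highest at 0.41 (*Aars*). With an absolute log2FC of 0.5 as the null hypothesis of the test, 0 genes of either branch were called. At an unadjusted p under 0.05, 9 ER genes and 11 ATF4 genes were counted. The shares of all autosomal genes at this threshold, and under that null hypothesis, are not given here. These counts therefore have no background beside them.

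The abundant ER chaperones and folding enzymes did not pass the test. None of the 6 genes of this role was called, and their median log2FC was 0.00. *Hspa5*, which encodes BiP, the Hsp70 chaperone of the ER lumen and the most used transcript readout of ER stress, was at 27995 (WT) and 31727 (*Anp32e-/-*) normalized counts, a log2FC of 0.18 ± 0.0921 (adjusted p = 0.125). *Hsp90b1*, the ER Hsp90 (GRP94), was at 33605 and 34215 (log2FC 0.03 ± 0.121, adjusted p = 0.898). *Canx*, the lectin chaperone calnexin, was at 28007 and 23739 (log2FC −0.24 ± 0.113, adjusted p = 0.0935). All 3 carry the ERSE printed above. *Hyou1*, the exchange factor of BiP (log2FC −0.03), and the disulfide isomerases *Pdia4* (−0.02) and *Pdia6* (0.03) had adjusted p-values between 0.805 and 0.850.

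Smaller partners of the chaperones changed in both directions. *Dnajb11* (ERdj3), a cochaperone that brings unfolded proteins to BiP, spans bases 22857845 to 22879634 of chromosome 16 (GRCm38, plus strand). It was at 6205 (WT) and 8838 (*Anp32e-/-*) normalized counts, a log2FC of 0.51 ± 0.0839 (adjusted p = 1.87e-08). *Sdf2l1*, whose product binds to the ERdj3 protein in a complex, lies on the same chromosome from 17130138 to 17132383 on the minus strand. It went the other way, from 1400 to 1109 normalized counts (log2FC −0.34 ± 0.121, adjusted p = 0.0201). The difference between these 2 genes was not tested, and their 95% intervals, 0.35 to 0.67 and −0.57 to −0.10, did not overlap. *Creld2*, an ER protein strongly induced by ER stress, was increased from 2406 to 3163 (log2FC 0.39 ± 0.0785, adjusted p = 4.94e-06). *Manf*, a secreted ER protein that is induced by the same stress, was decreased from 9504 to 7774 (log2FC −0.29 ± 0.0684, adjusted p = 0.000163). *Dnajc3* (p58IPK), an inhibitor of PERK and a BiP cochaperone, was decreased from 3973 to 3098 (log2FC −0.36 ± 0.139, adjusted p = 0.0323). *Dnajb9* (ERdj4), which restrains IRE1, was not called (log2FC 0.10, adjusted p = 0.585).

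Of the sensors and factors of the ER branch, *Atf6* was increased and *Xbp1* was decreased. *Atf6*, on chromosome 1 from 170704457 to 170868585 on the minus strand, went from 4018 to 5468 normalized counts (log2FC 0.44 ± 0.0914, adjusted p = 1.07e-05). *Xbp1*, on chromosome 11 from 5520641 to 5525993 on the plus strand, went from 3974 to 3361 (log2FC −0.24 ± 0.0929, adjusted p = 0.0316). The splicing of *Xbp1* by IRE1 marks an active response, but both RefSeq transcripts of the gene carry the same values in the table, so the spliced form could not be read from it. The kinase genes *Eif2ak3* (log2FC 0.10, adjusted p = 0.463) and *Ern1* (0.13, adjusted p = 0.504) were not called. Among genes of ER degradation, *Edem1*, which hands misfolded glycoproteins to degradation, was decreased from 3893 to 3298 (log2FC −0.24 ± 0.0898, adjusted p = 0.0269). *Herpud1* (log2FC −0.10, adjusted p = 0.462) and *Sel1l* (0.00, adjusted p = 0.9998), members of the HRD1 ligase complex, were not called. The 6 ER genes with an ERSE held 1 increased gene (*Creld2*) and 1 decreased gene (*Dnajc3*), and their median log2FC was 0.03. These counts stand beside 22.1% increased and 16.2% decreased of the autosomal genes at or above the lowest member's mean. Both calls were lost with chromosome medians taken out.

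**Figure D2:**
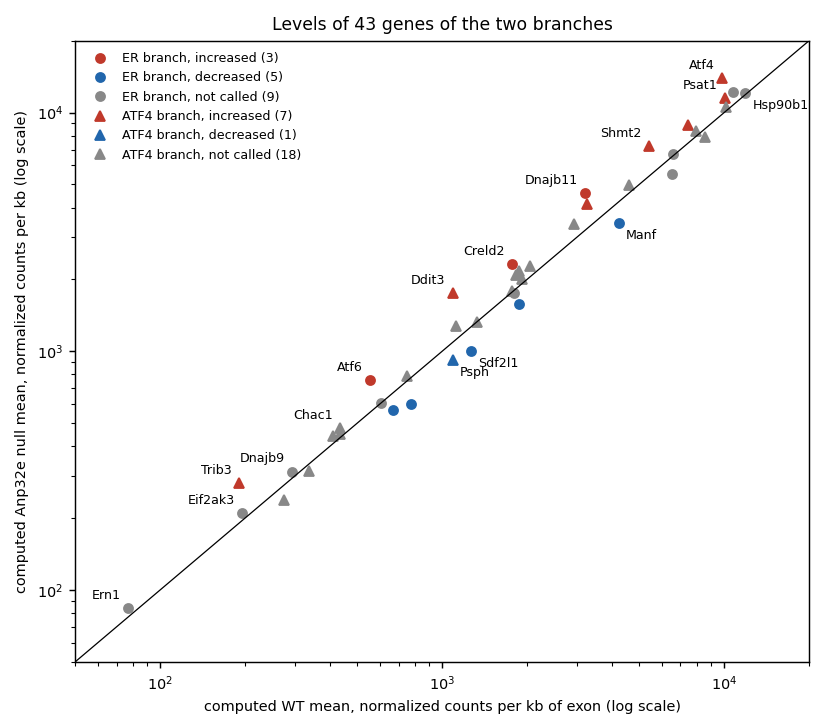
Computed mean level in Anp32e-/- MEFs (vertical axis) against WT MEFs (horizontal axis), in normalized counts per kb of exon on log scales, for the 43 genes with an exon length; circles are ER genes, triangles ATF4 genes, colors give the call and the line marks equal levels. All genes lie close to the line across a range from Ern1, the lowest, to Hsp90b1 and Atf4; the plot shows no error, since the table has no values per library.

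In the ATF4 branch, the highest log2FC values as listed were those of *Ddit3*, *Trib3* and *Atf4*, of which *Ddit3* and *Trib3*, but not *Atf4*, were still the highest once chromosome medians were taken out. All 7 genes of the kinase, the factors and the feedback regulators had a positive log2FC, with a median of 0.19, and 3 of them were called. *Atf4*, on chromosome 15 from 80255184 to 80257545 on the plus strand, went from 16907 normalized counts in WT to 24149 in *Anp32e-/-* MEFs, which is a fold of 1.43 (log2FC 0.51 ± 0.0761, adjusted p = 2.82e-10). *Ddit3*, which encodes the transcription factor CHOP, lies on chromosome 10 from 127290793 to 127296291 on the plus strand and went from 969 to 1561, a fold of 1.61 (log2FC 0.69 ± 0.107, adjusted p = 2.24e-09). *Trib3*, a pseudokinase that is induced by ATF4 and CHOP and restrains both, lies on chromosome 2 from 152337425 to 152344060 on the minus strand and went from 386 to 570, a fold of 1.48 (log2FC 0.56 ± 0.148, adjusted p = 0.000861). *Chac1* and *Ppp1r15a*, further readouts of ATF4 with this role, were not called on the listed values. *Chac1*, which degrades glutathione, had a log2FC of 0.13 (adjusted p = 0.483), and *Ppp1r15a* (GADD34), which returns eIF2 to its unphosphorylated state, had 0.19 (adjusted p = 0.168). The GCN2 gene *Eif2ak4* (0.11, adjusted p = 0.404) and *Atf5* (0.01, adjusted p = 0.969, on a noncoding transcript, with the same 0.01 on the coding one) were not called either. *Ddit3* overlaps *Mbd6* by 77 bases, which was increased as well (log2FC 0.61), and *Mars1* by 71 bases; the kit keeps the strand, but the strand setting of the counting is not given in the sources used here. *Hspa5* overlaps Rabepk by 1921 bases and *Aars* overlaps Ddx19b by 3974 bases, of which Ddx19b was decreased (log2FC −0.48).

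Among genes of serine, glycine and one-carbon metabolism, 2 were increased and 1 was decreased. *Shmt2*, the mitochondrial serine hydroxymethyltransferase, went from 12110 to 16160 normalized counts (log2FC 0.42 ± 0.112, adjusted p = 0.00116). *Psat1* and *Psph* encode the second and the last enzyme of serine synthesis from glycolysis. *Psat1* was increased from 26307 to 30110 (log2FC 0.19 ± 0.0695, adjusted p = 0.0187), and *Psph* was decreased from 1887 to 1589 (log2FC −0.25 ± 0.0925, adjusted p = 0.0256). The gene of the enzyme that starts the pathway, *Phgdh*, was not called (0.07, adjusted p = 0.713). *Asns*, the asparagine synthetase and a classical target of ATF4 with the CARE printed above, was not called (0.12, adjusted p = 0.256), nor was the mitochondrial folate enzyme gene *Mthfd2* (0.15, adjusted p = 0.129). Of the proline synthesis genes, *Aldh18a1* had a log2FC of 0.21 (adjusted p = 0.0648) and *Pycr1* of −0.09 (adjusted p = 0.683).

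*Slc3a2* was the only 1 of 6 amino acid transporter genes that was called. It encodes the heavy chain CD98, which carries several light chains to the plasma membrane, and went from 9194 to 11623 normalized counts (log2FC 0.34 ± 0.0941, adjusted p = 0.00176). Its light chain partner for leucine, *Slc7a5* (LAT1), had a log2FC of −0.01. The remaining transporters, for cationic amino acids (*Slc7a1*, 0.05), glutamine (*Slc1a5*, 0.07, and *Slc38a2*, 0.05) and serine and alanine (*Slc1a4*, −0.21, adjusted p = 0.0992), were not called. Of the 5 cytosolic tRNA synthetase genes, *Nars*, for asparagine, was increased from 20471 to 24325 (log2FC 0.25 ± 0.0733, adjusted p = 0.00333). *Aars* (0.22, adjusted p = 0.0763), *Wars* (0.19, adjusted p = 0.143), *Sars* (0.07) and *Gars* (−0.11) were not called. The 7 ATF4 genes with a CARE had a median log2FC of 0.12, between −0.21 and 0.56, and 1 of them, *Trib3*, was called. Called genes made up 30.8% of the branch and 38.3% of the autosomal genes at or above the lowest member's mean. With chromosome medians taken out, *Aars* was called as well (0.32, adjusted p = 0.00682 in the recomputed Wald test).

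When levels were set per kb of exon, *Hsp90b1* (12003 normalized counts per kb, mean of 6 libraries), *Atf4* (11900) and *Hspa5* (11428) were the highest of the 43 genes with an exon length, followed by *Psat1* (10779) and *Sars* (10357). The lowest were *Trib3* (236), *Eif2ak3* (202) and *Ern1* (80.2). The kinase genes of the sensors were thus low and the major chaperones high, and *Atf4* was listed at a level like that of the chaperones. Without values per library the spread around these levels is unknown, and neighbors in this order cannot be said to differ. For 21 genes the table holds more than 1 transcript. All 25 further transcripts had a log2FC within 1 standard error of the first, and 5 of them carried the same values.

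The median log2FC of all genes differed between chromosomes in this comparison, from −0.35 on chromosome 14 to 0.34 on chromosome 19, and it was set beside the values of both branches. Of the 16 called genes, 12 had the sign of the median of their chromosome, as had 24 of all 45 genes, and across the 45 genes the log2FC and the chromosome median had a Pearson r of 0.53, given as a description, since genes of 1 chromosome share a median. *Dnajc3*, for instance, had a log2FC of −0.36 on chromosome 14, and *Slc3a2* of 0.34 on chromosome 19, each close to the median of its chromosome. When the median of the chromosome was taken out of every transcript and the Wald tests were recomputed, 8 of the 16 genes stayed called in the same direction. These were *Dnajb11* (0.31, adjusted p = 0.00202), *Atf6* (0.45, adjusted p = 8.72e-06), *Sdf2l1* (−0.54, adjusted p = 8.15e-05), *Edem1* (−0.31, adjusted p = 0.00368), *Atf4* (0.19, adjusted p = 0.0477), *Ddit3* (0.50, adjusted p = 3.84e-05), *Trib3* (0.58, adjusted p = 0.000714) and *Psph* (−0.25, adjusted p = 0.035). The calls of *Dnajc3* (−0.01), *Creld2* (0.07), *Manf* (−0.07), *Xbp1* (−0.08), *Psat1* (−0.15), *Shmt2* (0.23), *Slc3a2* (−0.01) and *Nars* (−0.05) were lost. *Atf4*, on chromosome 15 with a median of 0.32, went from a log2FC of 0.51 to 0.19, below *Aars*, *Ppp1r15a*, *Wars* (0.23) and *Shmt2* (0.23), while *Trib3* and *Atf6*, on chromosomes with medians of −0.02 and −0.01, changed by no more than 0.02. After this step *Hyou1* (0.19, adjusted p = 0.0263), *Ppp1r15a* (0.27, adjusted p = 0.04) and *Aars* (0.32, adjusted p = 0.00682) were called increased and *Slc38a2* (−0.27, adjusted p = 0.0285) was called decreased. The ER branch then held 3 increased and 2 decreased genes, and the ATF4 branch 5 increased and 2 decreased, against 13.8% increased and 11.4% decreased of the autosomal genes at or above the lowest member's mean. What sets the chromosome medians was not tested.

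**Figure D3:**
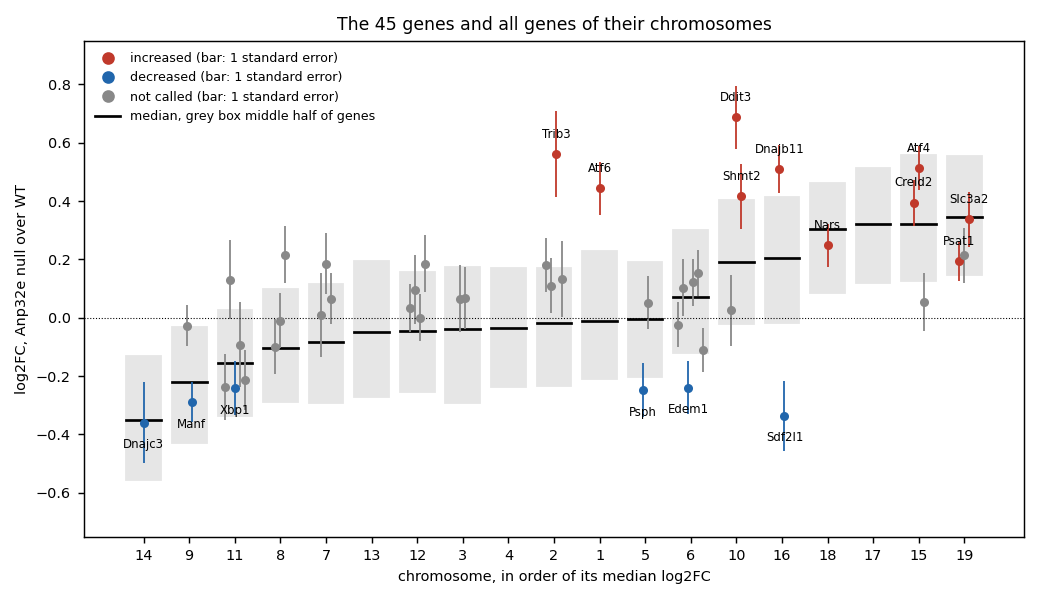
Log2FC of Anp32e-/- over WT (vertical axis) of the 45 genes, placed by chromosome in the order of the chromosome medians (horizontal axis); bars are 1 standard error, black lines the median and grey boxes the middle 50% of all genes of the chromosome, and the called genes are named. Dnajc3, Manf, Xbp1, Nars, Slc3a2, Atf4, Creld2 and Psat1 lie within the box of their chromosome. Above it lie Ddit3, Trib3, Atf6, Dnajb11 and Shmt2, and below it Sdf2l1, Edem1 and Psph.

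Further genes of both pathways were examined as lists that do not include the 45 genes. Their counts stand beside the 22.1% increased and 16.2% decreased of the autosomal genes at or above the lowest member's mean, and, with chromosome medians taken out, beside 13.8% and 11.4%. Of 28 other ER folding factors, 5 were increased and 5 decreased, and the median log2FC was 0.00. Those with the largest log2FC were *Creld1*, a relative of *Creld2* (0.75 ± 0.170, adjusted p = 8.51e-05), the oxidase *Ero1b* (−0.73 ± 0.234, adjusted p = 0.00816) and the prolyl isomerase *Fkbp14* (−0.68 ± 0.133, adjusted p = 3.85e-06). Of 30 other genes of ER degradation and translocation, 5 were increased and 8 decreased, with a median of −0.04. They included the signal peptidase subunit *Spcs3* (−0.94 ± 0.158, adjusted p = 4.47e-08), the degradation channel subunit *Derl1* (0.62 ± 0.0745, adjusted p = 3.46e-15) and the lectin *Erlec1* (−0.51 ± 0.198, adjusted p = 0.0348), whose call was lost with chromosome medians taken out (−0.35, adjusted p = 0.204).

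Of 20 other stress sensors and regulators, 7 were increased and 2 decreased, with a median of 0.12. *Map3k5* (ASK1), a kinase that acts downstream of IRE1, had a log2FC of 1.16 ± 0.152 (adjusted p = 5.09e-13), and *Atf3*, a stress factor that ATF4 induces, of 0.68 ± 0.194 (adjusted p = 0.00233). *Nupr1*, another stress-induced regulator, went the other way (−0.64 ± 0.100, adjusted p = 2.44e-09). Of 29 other ATF4 target genes tested, 14 were increased and 3 decreased, and the median was 0.28. *Stc2*, a secreted glycoprotein, had a log2FC of 1.15 ± 0.193 (adjusted p = 3.32e-08) and *Vldlr*, a lipoprotein receptor, of 1.06 ± 0.140 (adjusted p = 9.12e-13). *Gdf15*, a secreted factor induced by ATF4 and CHOP in stressed cells, was the largest change of all these genes and a decrease, from 282 to 59.1 normalized counts (−2.26 ± 0.215, adjusted p = 7.30e-24). Genes known as ATF4 targets thus moved in both directions. Of the 29 targets, 13 lie on chromosomes with a median over 0.15, and with the chromosome medians taken out 6 were increased and 3 decreased, at a median of 0.08. Of 8 other cytosolic tRNA synthetase genes, *Vars* was increased (0.45 ± 0.119, adjusted p = 0.00104) and *Qars* decreased (−0.35 ± 0.0933, adjusted p = 0.00111), with a median of −0.13, and neither stayed called when the chromosome medians were taken out. The same step left 6 increased and 5 decreased of the other ER folding factors, 5 and 3 of the other degradation and translocation genes, and 6 and 2 of the other stress sensors and regulators.

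**Figure D4:**
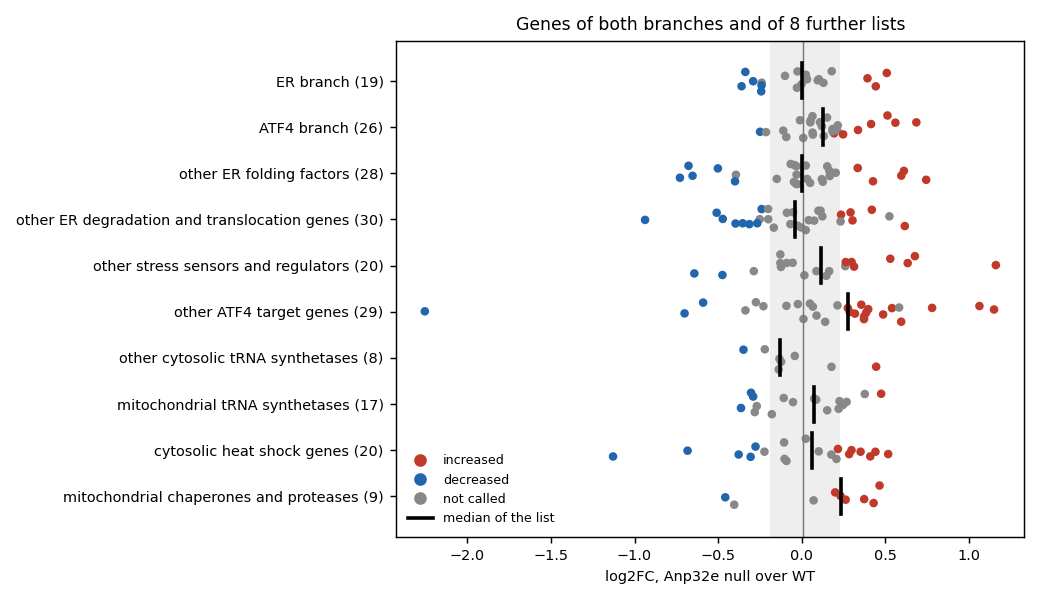
Log2FC of Anp32e-/- over WT (horizontal axis) of the genes of both branches and of 8 further lists, with the number of genes tested in brackets; each point is a gene, colored by its call, the black bar is the median of the list, and the grey band holds the middle 50% of the autosomal genes at or above the lowest member's mean. The medians run from −0.13 for other cytosolic tRNA synthetases to 0.28 for other ATF4 target genes, and Gdf15 stands apart at −2.26.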

How the data were processed

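MEF RNA was made into stranded total RNA libraries, 3 per genotype. The authors aligned reads to mm10 with STAR, assigned them to RefSeq transcripts by featureCounts, and ran DESeq2 with its defaults; how reads with several matches were treated is not given in the sources used here. The deposited signal column is the mean of size-factor normalized counts over the 6 libraries. The deposited log2 fold changes and standard errors, the deposited score (the Wald statistic, equal to their ratio within 1.3e-13) and the deposited p-values, raw and Benjamini-Hochberg adjusted with independent filtering, are those of the authors. These columns are the authors' own comparison and were used because the table holds nothing else. Depth per library is unknown.

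Transcripts were matched to RefSeq genes of GRCm38 (42198 of 42361 matched), and the transcript with the highest mean stood for its gene. Group levels were calculated so that they give both the listed mean and the listed log2FC, with 3 counts as a floor. Wald tests of the alternatives were recomputed from the log2FC and standard error and tested on simulated data. Promoter motifs were searched by exact match. The members and lists were chosen with earlier results of these data known, so no list was tested. Named genes are the 45 members, up to 3 called genes per further list with a mean of at least 50 and the largest absolute log2FC, and the markers a sentence needs. Python 3.11.15, numpy 2.4.6, pandas 2.3.3, scipy 1.17.1 and matplotlib 3.10.9 were used.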

Additional observations from a re-analysis of the deposited data

How the results depend on the processing

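The counts of called genes were the same when p-values were adjusted over every transcript with reads or over 1 transcript per gene. They also stayed the same without transcripts under a mean of 10 or 50, and with the median of all genes taken out. The same counts were found with the coding transcript of the lowest mean standing for each gene. That setting could change little, since 24 genes have only 1 transcript and 5 of the 25 further transcripts carry the same values as the first. With an adjusted p under 0.01 the calls of 6 genes were lost, among them the increase of *Psat1* (adjusted p = 0.0187 in the DESeq2 Wald test). The decreased genes were then 1 in the ER branch and 0 in the ATF4 branch. With an absolute log2FC of 0.5 as the null hypothesis, the Wald test left 0 increased and 0 decreased genes in both branches. At an unadjusted p under 0.05 in the DESeq2 test, 20 genes were counted. The share of all autosomal genes is given for neither setting. With chromosome medians taken out, 2 genes were decreased in each branch, and past 0.5 the ER branch held 0 increased and 1 decreased gene and the ATF4 branch 1 increased gene. The sign of the log2FC then turned for *Hsp90b1* (−0.17), *Hyou1* (0.19), *Herpud1* (0.0037), *Psat1* (−0.15), *Aldh18a1* (−0.13), *Pycr1* (0.065), *Slc7a5* (0.093), *Slc3a2* (−0.0063), *Slc38a2* (−0.27) and *Nars* (−0.054). With its other coding transcript *Sel1l* was at −0.0096. The cause of these shifts was not tested. The background at or above the lowest member's mean, and the chromosome medians for the further lists, were chosen after seeing the data. Leaving out replicates was not run. No paired analysis was possible because the table holds no values per library.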

Other observations

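Stress pathways outside the ER and ATF4 branches also changed in both directions. Of 20 cytosolic heat shock genes, 7 were increased and 5 decreased, with a median log2FC of 0.06. The small heat shock protein gene *Hspb1* fell from 6178 normalized counts in WT to 2826 in *Anp32e-/-* MEFs (log2FC −1.13 ± 0.118, adjusted p = 6.57e-20 from the DESeq2 Wald test). The chaperone gene *Hspa4l* had a log2FC of −0.68 ± 0.152 (adjusted p = 5.59e-05), and *Hsf1*, the gene of the heat shock transcription factor, of 0.52 ± 0.107 (adjusted p = 1.07e-05). With chromosome medians taken out, *Hspb1* and *Hspa4l* were decreased, and the call of *Hsf1* was lost (0.20, adjusted p = 0.182). The 1 gene then increased was *Hsph1* (0.22, adjusted p = 0.0409), named after its value was seen.

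Of 9 mitochondrial chaperone and protease genes, 6 were increased and 1 was decreased, with a median log2FC of 0.23. The matrix protease has its peptidase subunit encoded by *Clpp* (0.47 ± 0.115, adjusted p = 0.000323) and its unfoldase subunit by *Clpx* (−0.46 ± 0.131, adjusted p = 0.00240). Both calls were lost with chromosome medians taken out (*Clpp* 0.15, adjusted p = 0.402; *Clpx* −0.24, adjusted p = 0.194). *Dnaja3*, a cochaperone of mitochondrial Hsp70, was increased (0.43 ± 0.0851, adjusted p = 4.00e-06). After that step 2 genes of the list were increased, *Dnaja3* (0.23, adjusted p = 0.0345) and *Hspd1* (0.21, adjusted p = 0.0266), and 0 were decreased by the recomputed Wald test. Of 17 mitochondrial tRNA synthetase genes, 1 was increased (*Aars2*, 0.48 ± 0.126, adjusted p = 0.000960) and 3 were decreased, among them *Rars2* (−0.36 ± 0.129, adjusted p = 0.0186) and *Iars2* (−0.30 ± 0.0777, adjusted p = 0.000615). With chromosome medians taken out, *Aars2* was no longer called (0.15, adjusted p = 0.419), *Sars2* was increased (0.35, adjusted p = 0.0334), and *Rars2* and *Iars2* were the 2 genes decreased. *Hspd1* and *Sars2* were also named after their values were seen. For comparison, of the autosomal genes at or above the lowest mean of the ER and ATF4 genes 22.1% were increased and 16.2% decreased, and 13.8% and 11.4% with chromosome medians taken out.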
